A study of Mus musculus with 8 samples.

Results

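The Apoe cluster and the genes of liver X receptor (LXR) cholesterol efflux were followed as 10 genes, Apoe, Apoc1, Apoc2, Abca1, Abcg1, Nr1h3, Nr1h2, Mylip, Lpcat3 and Srebf1, out of 16786 genes with a value in the tables. They were taken by gene symbol, and the set was chosen by its measured values in these same libraries, among them the level of Apoe, so the values of the 10 genes are given as a description, no p is given for any of them, and nothing is read from how many passed the fit over all genes. RNA was sequenced from tumor-associated macrophages (TAMs). They were sorted by CD45 and F4/80 on day 14 after injection of B16, a mouse melanoma cell line of C57BL/6 origin, under the skin. TAM-WT came from 4 WT mice and TAM-KO from 4 Colec11-/- mice with 1 library per mouse, and no treatment other than the tumor was given to either group. Colec11 encodes collectin-11 (CL-11), a soluble lectin of the complement system. Per the methods of the study the mice were males 8 to 10 weeks old, the homozygous Colec11-/- mice had been back-crossed onto C57BL/6, WT littermates served as controls, and both groups received the same B16 cells. The comparison asks which transcripts of TAMs differ when the host lacks CL-11.

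LXRα, encoded by Nr1h3, and LXRβ, encoded by Nr1h2, are nuclear receptors that bind oxysterols and, paired with a retinoid X receptor, raise genes that move cholesterol out of a loaded MΦ. ABCA1 and ABCG1 pass cholesterol and phospholipid across the plasma membrane to acceptor particles, and apolipoprotein E, secreted by MΦ in large amounts, is such an acceptor and a ligand of lipoprotein receptors. Apoe, Apoc1 and Apoc2 lie close together on 1 chromosome, where LXR acts through shared distal enhancers. Other known LXR targets limit uptake through the LDL receptor (Mylip, which encodes the ubiquitin ligase IDOL), remodel membrane phospholipids (Lpcat3) and switch on fatty acid synthesis (Srebf1).

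In the RefSeq annotation of GRCm38.p6 the Apoe gene (NCBI Gene 11816) spans chr7:19696244-19701310, Apoc1 (11812) spans chr7:19689480-19692659 and Apoc2 (11813) spans chr7:19671579-19677941, so that the starts of Apoc1 and Apoc2 lie 6.8 and 24.7 kb below that of Apoe. Nr1h2 (22260) is on the same chromosome at chr7:44549616-44553968. The other genes are Abca1 (11303) at chr4:53030789-53159988, Abcg1 (11307) at chr17:31057694-31117984, Nr1h3 (22259) at chr2:91184061-91202829, Mylip (218203) at chr13:45389742-45411940, Lpcat3 (14792) at chr6:124663094-124704716 and Srebf1 (20787) at chr11:60199084-60224186. The upstream sequences of 8 of the 10 genes, with 13 start sites in all, were found in the RefSeq promoter table. LXR binds 2 copies of the half-site AGGTCA spaced by 4 bases, a direct repeat known as DR4. The 250 bases before a start are shown for Apoe, the most abundant of the 10, and for Abca1 and Srebf1, the genes whose promoter came closest to that repeat. They are printed on the strand of the gene, 5′ to 3′, with the closest 16 bases in capitals. In Apoe nothing is in capitals. The start shown for Apoe is the most upstream of several listed, and it lies inside the span of the gene given above.
Apoe, chr7:19699189-19699438, minus strand: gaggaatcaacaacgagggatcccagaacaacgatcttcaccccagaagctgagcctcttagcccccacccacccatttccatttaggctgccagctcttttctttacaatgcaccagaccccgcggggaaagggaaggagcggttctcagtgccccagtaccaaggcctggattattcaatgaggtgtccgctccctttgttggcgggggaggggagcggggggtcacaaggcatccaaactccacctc
Abca1, chr4:53159896-53160145, minus strand: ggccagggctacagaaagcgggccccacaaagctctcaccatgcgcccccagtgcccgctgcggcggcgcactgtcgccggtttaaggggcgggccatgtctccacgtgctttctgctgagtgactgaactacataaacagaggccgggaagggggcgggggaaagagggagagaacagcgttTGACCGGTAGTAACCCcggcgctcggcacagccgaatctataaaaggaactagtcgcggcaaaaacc
Srebf1, chr11:60210472-60210721, minus strand, the third of 3 start sites and inside the longer transcripts: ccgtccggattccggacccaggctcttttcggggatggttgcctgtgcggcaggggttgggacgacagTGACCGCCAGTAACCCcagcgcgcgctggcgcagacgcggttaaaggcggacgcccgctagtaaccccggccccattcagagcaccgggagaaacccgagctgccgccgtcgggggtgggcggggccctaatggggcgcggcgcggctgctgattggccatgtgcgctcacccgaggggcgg
None of the 13 member promoters, each taken from 250 bases before to 50 bases after a start, held the repeat with up to 2 mismatches over the 12 bases of the half-sites on either strand. That form was present in 3.02% of all 32851 promoters, and the exact repeat in 5 of them. With 3 mismatches, a limit chosen after the sequences were read, 21.9% of all promoters and 2 of the 13 held it. These were Abca1, 67 to 52 bases before its start, and Srebf1, 182 to 167 bases before the third start, both on the strand opposite to the gene. Read on that opposite strand, the windows are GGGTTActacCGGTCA in Abca1 and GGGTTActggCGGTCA in Srebf1, with the half-sites in capitals. Their 12 half-site bases are the same in both genes, and each differs from the repeat by A1G, C5T and A11C, counted from 1 at the 5′ end of the 16 bases. The same pair of half-sites stood in 3 of all 32851 promoters, or 0.00913%. These are matches of letters in short windows and say nothing of whether LXR was bound.

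The 7 libraries with a full table held from 16225362 to 17280267 reads on genes. The table of TAM-KO replicate 1 lacks 5311 lines, so this library had no value for Abcg1 and Lpcat3, and its values for Apoe, Apoc1, Apoc2 and Abca1 were taken from the authors' table of the whole series, which equalled the table of this library within 0.01 in 2808 of the 2809 values that could be compared. The unequal value was left out, as its line mixes 2 genes. Colec11 had between 0 and 4 expected counts in TAM-WT and 1 in each TAM-KO library, too few to check the genotype. TAM-WT replicate 4 stands apart from the other TAM-WT libraries in Apoe and Apoc2, as given below, and the values of the 9 members with a fitted difference and of the list genes that passed are therefore also given without it. As the library was set apart by Apoe and Apoc2, their fits without it, with a smaller SE, add no support. For Hal, a histidine-degrading enzyme chosen after its values were seen, this library read 0.71 FPKM, beside 1.03, 0.58 and 1.85 in TAM-WT replicates 1 to 3 and from 85.92 to 158.92 in TAM-KO, so in that gene it sat with its label. The 8 MΦ marker genes summed to between 12432 and 16330 CPM (read counts scaled to library size by TMM) in TAM-WT and between 9616 and 12574 in the 3 TAM-KO libraries with a full table. Markers of the tumor cells were also present. The 5 melanoma markers, all above 0, summed to between 3560 and 7428 CPM in TAM-WT, lowest in replicate 4, and to between 6560 and 8152 in TAM-KO, with 1 of 5 higher in TAM-KO past the threshold used below. T cell markers summed to between 4.64 and 21.7 CPM in TAM-WT, with 5.65 in replicate 4, and to between 20.9 and 47.0 in TAM-KO, with 0 of 5 past the threshold. Endothelial markers summed to between 4.36 and 9.637 CPM in TAM-WT, highest in replicate 4, and to between 9.642 and 19.7 in TAM-KO, with 0 of 3 past it. Neutrophil markers summed to between 40.6 and 114 CPM in TAM-WT and to between 25.9 and 46.2, an overlapping range with a lower top, in TAM-KO, although 1 of 5 was higher in TAM-KO past the threshold. Of the 5 dendritic cell markers 1 was higher past it, while their sums overlapped, as did those of NK cells, B cells and fibroblasts. The part of other cells in the values below was not tested, and in bulk RNA fewer cells of a type and less RNA per cell cannot be told apart.

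Apoe was the most abundant of the 10 transcripts in every library. Its FPKM, a level that corrects fragment counts for the length of the gene and for library size, was 3175.23, 2886.32, 3313.63 and 497.2 in TAM-WT replicates 1 to 4. In TAM-KO replicates 1 to 4 it was 442.19, 435.38, 454.44 and 435.92. Thus 3 TAM-WT libraries stood at 2886.32 FPKM or above, while TAM-WT replicate 4 stood beside the TAM-KO libraries and was 1.09 times the highest of them. The lowest of the other TAM-WT libraries was 5.81 times TAM-WT replicate 4. The group means were 2468 ± 1326 FPKM in TAM-WT (SD, n = 4) and 442 ± 8.86 in TAM-KO (n = 4), a ratio of 5.58, and the TAM-KO libraries spread by only 1.04-fold. The values rest on 7016 to 53825 expected counts. Apoe took between 0.278% and 0.318% of the reads on genes in TAM-WT replicates 1 to 3, 0.0479% in TAM-WT replicate 4 and between 0.0427% and 0.0447% in TAM-KO replicates 2 to 4. On the log2 scale the fitted difference, TAM-KO minus TAM-WT, was -2.55 (SE 0.57). This fit, like those of Apoc2, Abca1, Abcg1 and Lpcat3, was made without TAM-KO replicate 1, and those of Nr1h3, Nr1h2, Mylip and Srebf1 used all 8 libraries. Without TAM-WT replicate 4 it was -2.89 (SE 0.13), and over all single libraries left out it ran from -2.89 to -2.32.

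Apoc2 encodes the cofactor that activates lipoprotein lipase. Its level was 13.66, 11.15, 21.81 and 0.63 FPKM in TAM-WT replicates 1 to 4. It was 5.07, 2.5, 2.27 and 0.55 FPKM in TAM-KO replicates 1 to 4. TAM-WT replicate 4 was again low, below 3 of the 4 TAM-KO libraries, and the groups overlapped. These levels rest on few reads, 5 counts in TAM-WT replicate 4 and 4 in TAM-KO replicate 4 against 170 in TAM-WT replicate 3. The fitted log2 difference was -3.20 (SE 0.97), and -3.59 (SE 0.47) without TAM-WT replicate 4. Both fits leave out TAM-KO replicate 1, which had the highest Apoc2 level in TAM-KO. With that library included, the log2 difference was smaller in size, at -2.62 (SE 0.83). The 10 alternative fits that gave Apoc2 a value ran from -3.22 to -1.79, so the size of its difference depended on the method. Over the 7 libraries with a full table the Pearson correlation of Apoc2 with Apoe on log2(CPM + 1) was 0.97, a description over libraries of the same 2 groups. Apoc2 shares its position with Gm44805, an Apoc4-Apoc2 readthrough, which read 0.83 and 0.51 FPKM in TAM-WT replicates 1 and 2 and 0 in the others with a value, so reads may be split between these genes.

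Apoc1, which encodes an inhibitor of lipoprotein uptake and lies between Apoc2 and Apoe, was close to absent. It had 3, 3, 2 and 6 expected counts in TAM-WT replicates 1 to 4. It had 8, 7, 6 and 7 in TAM-KO replicates 1 to 4. In FPKM these were 1.21 ± 0.60 in TAM-WT (SD, n = 4) and 2.38 ± 0.28 in TAM-KO (n = 4), so the higher mean was in TAM-KO, opposite to Apoe. TAM-WT replicate 4 was again nearest to TAM-KO, with 2.07 FPKM against 2.04 to 2.71. At 2 to 8 counts the gene was below the filter on low counts and has no fitted difference.

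**Figure D1:**
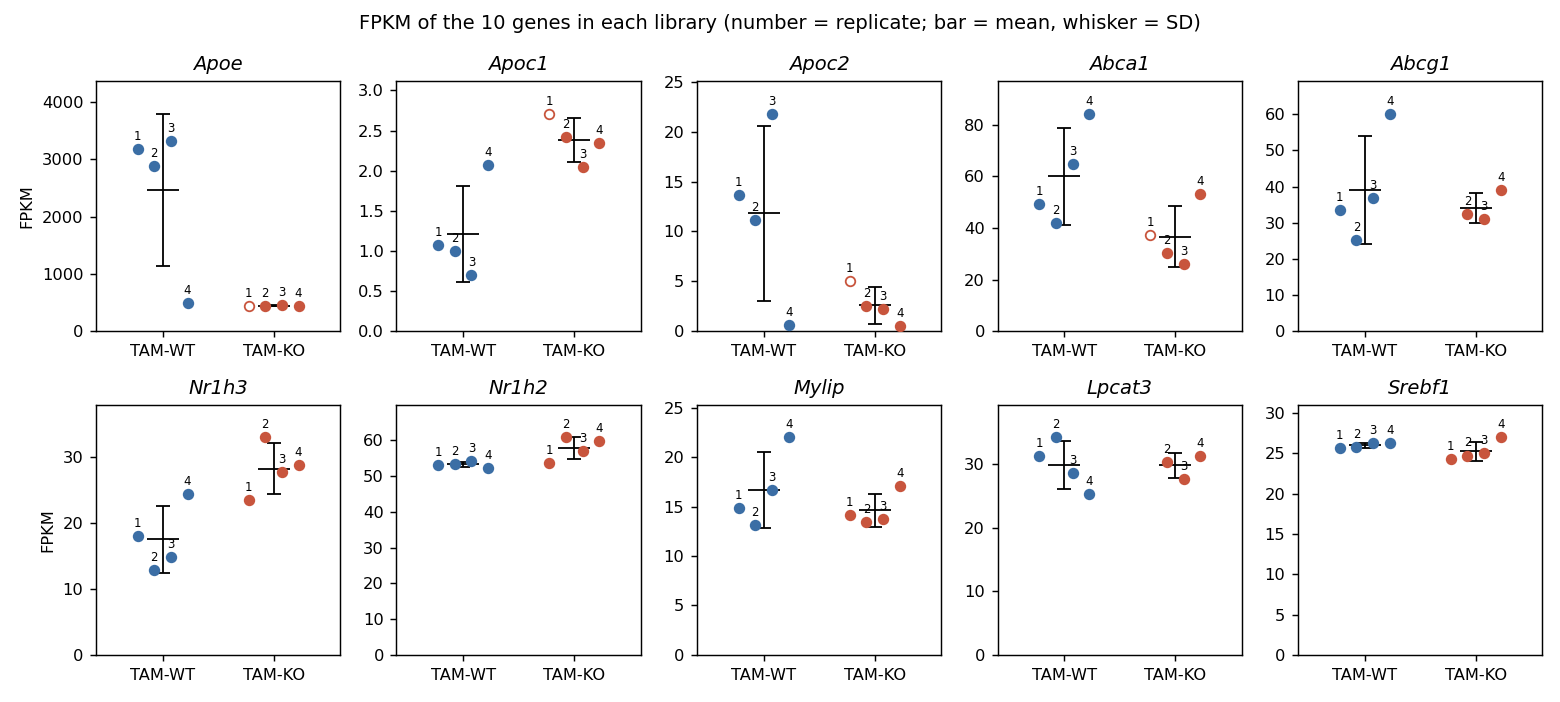
FPKM (y axis, linear from 0, its own scale in each panel) of the 10 genes in the 4 TAM-WT (blue) and 4 TAM-KO (red) libraries, each point numbered by its replicate, with the mean (bar) and SD (whisker); open points are TAM-KO replicate 1 values from the table of the whole series. Apoe stands at 2886.32 or above in TAM-WT replicates 1 to 3 and between 435.38 and 497.2 in the other 5 libraries, while Nr1h2 and Srebf1 stay within a narrow band.

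The 2 sterol exporters were highest in TAM-WT replicate 4, the library low in Apoe. Abca1 stood at 49.32, 41.72, 64.58 and 84.26 FPKM in TAM-WT replicates 1 to 4. In TAM-KO replicates 1 to 4 it stood at 37.08, 30.23, 26.14 and 53.20. The means were 59.97 ± 18.8 (SD, n = 4) and 36.7 ± 11.9 (n = 4), and the groups overlapped. The fitted log2 difference of Abca1 was -0.83 (SE 0.34), and -0.60 (SE 0.32) without TAM-WT replicate 4. Abcg1 stood at 33.60, 25.28, 36.79 and 60.14 FPKM in TAM-WT replicates 1 to 4. In TAM-KO replicates 2 to 4 it stood at 32.27, 31.02 and 38.91. Its fitted log2 difference of -0.31 (SE 0.28) became -0.01 (SE 0.19) without TAM-WT replicate 4, so its size rested on that library. Within libraries the FPKM of Abca1 was 1.57 ± 0.16 times that of Abcg1 in TAM-WT (SD, n = 4) and 1.05 ± 0.28 times in TAM-KO (n = 3), with the TAM-KO range of 0.843 to 1.37 below the TAM-WT range of 1.40 to 1.76. This ratio was looked at after the values were seen.

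Of the receptors, LXRα and LXRβ differed in pattern. Nr1h3 read 17.99, 12.82, 14.82 and 24.32 FPKM in TAM-WT replicates 1 to 4. It read 23.45, 32.90, 27.71 and 28.69 in TAM-KO replicates 1 to 4. The means were 17.5 ± 5.03 (SD, n = 4) and 28.2 ± 3.88 (n = 4), so the level was 1.61 times as high in TAM-KO, and the overlap of the groups came from TAM-WT replicate 4 alone, which was above TAM-KO replicate 1. The fitted log2 difference of Nr1h3 was 0.58 (SE 0.19), and 0.80 (SE 0.15) without TAM-WT replicate 4. These fits use counts scaled by TMM, while the 1.61 is in FPKM. In the 2 fits on FPKM, with all TAM-WT libraries, the log2 difference was larger than 0.58, at 0.69 and 0.72. Nr1h2 ranged only from 52.26 to 54.21 FPKM in TAM-WT and from 53.65 to 60.80 in TAM-KO, with a fitted log2 difference of 0.02 (SE 0.07), and 0.02 (SE 0.08) without TAM-WT replicate 4. Per library the FPKM of Nr1h3 was 0.339, 0.240, 0.273 and 0.465 of that of Nr1h2 in TAM-WT replicates 1 to 4. It was 0.437, 0.541, 0.485 and 0.480 in the TAM-KO libraries, in the same order. In all 8 libraries LXRβ was thus the more abundant receptor transcript, and the mean ratio was 0.329 ± 0.099 in TAM-WT (SD, n = 4) and 0.486 ± 0.043 in TAM-KO (n = 4).

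Of the remaining LXR targets, Srebf1 varied least. Srebf1 ran from 25.66 to 26.31 FPKM in TAM-WT and from 24.27 to 26.99 in TAM-KO, with a fitted log2 difference of -0.15 (SE 0.07), and -0.135 (SE 0.08) without TAM-WT replicate 4. Lpcat3 ran from 25.35 to 34.24 in TAM-WT, lowest in replicate 4, and from 27.65 to 31.37 in the 3 TAM-KO libraries that list it. Its log2 difference of -0.10 (SE 0.09) was -0.16 (SE 0.09) without TAM-WT replicate 4, and it changed sign in 2 of the 11 alternative fits. Mylip read 14.83, 13.15, 16.66 and 21.99 FPKM in TAM-WT replicates 1 to 4. Its highest TAM-WT value was 1.67 times the lowest. It ranged from 13.44 to 17.11 in TAM-KO, with a fitted log2 difference of -0.30 (SE 0.17) that shrank to -0.13 (SE 0.14) without TAM-WT replicate 4. Mylip, Abca1 and Abcg1 thus shared the same highest TAM-WT library. Over the 7 libraries with a full table the Pearson correlation with Abca1 was 0.92 for Mylip, 0.93 for Srebf1 and 0.81 for Abcg1, against 0.32 for Apoe and -0.24 for Nr1h3. That of Nr1h3 with Apoe was -0.93. All these points come from the same 7 libraries and 2 groups. The 50 genes with the largest correlation with Abca1 in either direction all reached at least 0.976 in size, and no member was among them. A correlation does not hold the size of a change, and in FPKM Srebf1 was highest in TAM-KO replicate 4, at 26.99.

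Ordered by mean FPKM in TAM-WT, the 10 genes ran Apoe, Abca1, Nr1h2, Abcg1, Lpcat3, Srebf1, Nr1h3, Mylip, Apoc2, Apoc1. The ranges of neighbors in this order overlapped over the TAM-WT libraries, except for Apoe above Abca1 and Srebf1 above Nr1h3. In TAM-KO the order of means was Apoe, Nr1h2, Abca1, Abcg1, Lpcat3, Nr1h3, Srebf1, Mylip, Apoc2, Apoc1. There Nr1h2 at 53.65 to 60.80 FPKM lay above Abca1 at 26.14 to 53.20, and Mylip at 13.44 to 17.11 lay apart from the genes on both sides of it.

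**Figure D2:**
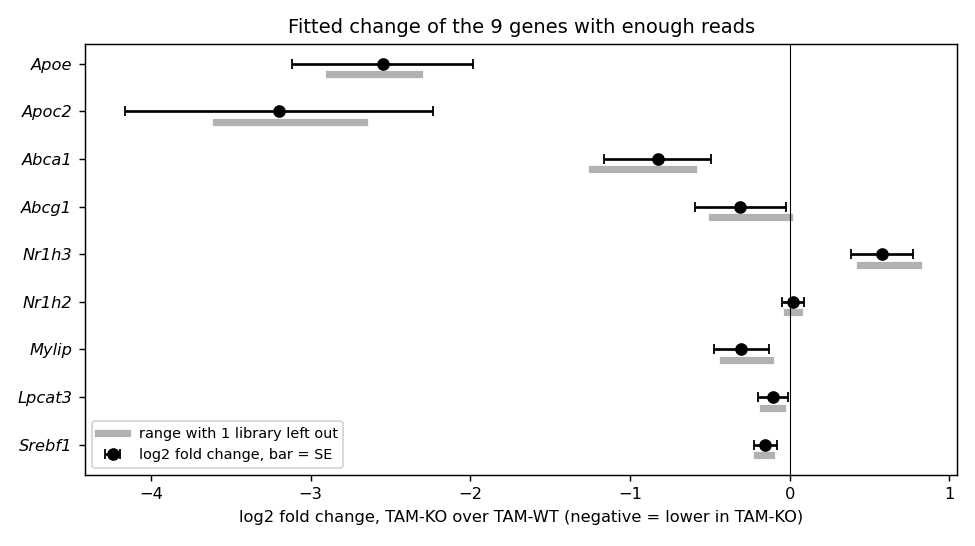
Fitted log2 fold change of TAM-KO over TAM-WT (x axis, dot, with its SE as a bar) for the 9 genes with enough reads, and the range of the value when 1 library at a time is left out (grey). Apoe reaches at most -2.32 and Apoc2 -2.67 in the grey ranges, that of Nr1h3 begins at 0.44, and the range of Abcg1 reaches -0.01.

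In the fit over all 12412 tested genes (edgeR's quasi-likelihood test with Benjamini-Hochberg adjustment, adjusted p of at most 0.05), 1218 genes passed, or 9.81%. The number was 416 with TAM-WT replicate 4 left out. Of the 1218, 568 were higher in TAM-KO (4.58% of tested genes) and 650 were lower (5.24%). This split depends on the scaling, since 46.6% of the genes that passed were higher in TAM-KO under TMM and 64.4% were higher when libraries were scaled to total reads. Of the 9 members tested, 1 passed, Apoe, which was also the only one of the 10 whose groups did not overlap in FPKM, as was the case in 18.9% of all tested genes (5.41% with TAM-KO lower). Because Apoe's difference was known when the set was drawn up, nothing is read from this count. The median log2 difference was -0.30 over the 9 members and 0.00163 over all tested genes. The call for Apoe was lost when TAM-WT replicate 1 or 3, or TAM-KO replicate 2, 3 or 4, was left out, each of which gave 0 members. Over all genes 1160, 151, 77, 77 and 1136 passed in those fits, in that order. Apoe's log2 difference then ran from -2.56 to -2.32. Without TAM-WT replicate 4, the members that passed were 3, namely Apoe, Apoc2 and Nr1h3, while 416 of 12464 tested genes passed. That library was set apart by its values of Apoe and Apoc2, so nothing is read from this count either.

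The other lists hold genes of the same pathway and were tested in that fit. They too were chosen with earlier results of these data known, which limits what their adjusted p-values can support. Of 20 further LXR targets 16 had enough reads, 2 rose in TAM-KO, 0 fell and 14 did not pass (12.5% called, near the 9.81% of all tested genes), with a median log2 difference of 0.14. The 2 that rose make fatty acids. Fasn, fatty acid synthase, stood at 33.45, 40.70, 27.70 and 25.33 FPKM in TAM-WT replicates 1 to 4. In TAM-KO replicates 1 to 4 it stood at 44.00, 59.84, 53.33 and 47.60. All of these were above the TAM-WT range, and in FPKM the groups did not overlap in 18.9% of all tested genes. Relative to TMM, the fits on FPKM moved the median log2 difference of all genes toward TAM-KO by 0.101 and 0.107. The fit of Fasn, which leaves out TAM-KO replicate 1, gave a log2 difference of 0.65 (SE 0.14, edgeR adjusted p = 0.0303). Acaca, acetyl-CoA carboxylase, ranged from 7.35 to 9.37 FPKM in TAM-WT and from 10.54 to 12.29 in the 3 TAM-KO libraries that list it, a log2 difference of 0.36 (SE 0.08, edgeR adjusted p = 0.0313). The 2 most abundant genes of the list did not pass. Lpl, lipoprotein lipase, averaged 338 ± 59.6 FPKM in TAM-WT (SD, n = 4) and 288 ± 25.0 in TAM-KO (n = 3). Pltp, phospholipid transfer protein, averaged 158 ± 31.5 and 215 ± 93.0 (n = 4 each). Apoc4, the fourth gene of the Apoe cluster, read at most 1.13 FPKM in any library and was not tested. Leaving out replicate 3 or 4 of TAM-WT, or replicate 2 or 3 of TAM-KO, left 0 of these targets past the threshold. Of all tested genes 151, 416, 77 and 77 passed in those fits, in that order. Without TAM-WT replicate 4 the log2 difference was 0.57 for Fasn (SE 0.13, edgeR adjusted p = 0.0567) and 0.32 for Acaca (SE 0.07). With that library kept, the adjusted p of Fasn ran from 0.000389 to 0.0421 over the 11 alternatives of method (edgeR, DESeq2 or limma), filter and scaling. Fasn passed in 4 of the 8 fits with 1 library left out. Of these, the fit without TAM-KO replicate 1 repeats the fit above and changes only the adjustment of p. So does the fit on 7 libraries among the 11 alternatives. Leaving out TAM-WT replicate 2 gave 5 targets, 3 higher and 2 lower in TAM-KO, while 2755 of all tested genes passed. Mertk was 1 of the 2 lower. It ranged from 20.06 to 23.29 FPKM in TAM-WT and from 16.96 to 20.05 in the 3 TAM-KO libraries that list it. With TAM-WT replicate 2 kept, its log2 difference was -0.35 (SE 0.09, edgeR adjusted p = 0.0557).

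Of the 20 LXR partners, coregulators and sterol sensors 18 were tested, 2 rose, 1 fell and 15 did not pass (16.7% called against 9.81% of all tested genes, a difference that was not tested), with a median log2 difference of 0.04. Pparg, which encodes the lipid-sensing nuclear receptor PPARγ, read 27.36, 23.95, 29.68 and 31.76 FPKM in TAM-WT replicates 1 to 4. It read 19.57, 19.57, 21.66 and 18.77 in TAM-KO replicates 1 to 4. The groups did not overlap, and Pparg fell by 0.60 on the log2 scale (SE 0.11, edgeR adjusted p = 0.0201). Scap, the escort of the SREBP transcription factors, ranged from 12.10 to 16.47 in TAM-WT and from 17.47 to 20.87 in TAM-KO, a rise of 0.37 on the log2 scale (SE 0.09, edgeR adjusted p = 0.0327). Insig2, which retains SCAP in the endoplasmic reticulum, ranged from 15.70 to 19.72 and from 19.87 to 24.31, a rise of 0.30 (SE 0.08, edgeR adjusted p = 0.0436) that passed in only 2 of the 8 fits with 1 library left out, those without TAM-WT replicate 2 or TAM-KO replicate 4. Srebf2, the master factor of sterol synthesis, averaged 50.1 ± 7.505 FPKM in TAM-WT and 57.1 ± 2.66 in TAM-KO (SD, n = 4 each) and did not pass. Insig1, a further SCAP anchor, averaged 52.7 ± 12.4 and 48.2 ± 7.60 (n = 4 each) and did not pass either. The count was 0 when replicate 3 of TAM-WT, or replicate 2 or 3 of TAM-KO, was left out. Of all tested genes 151, 77 and 77 passed in those fits, in that order. Without TAM-WT replicate 4 the count was 1, Pparg, and the log2 differences were -0.53 for Pparg (SE 0.11), 0.33 for Scap (SE 0.09) and 0.305 for Insig2 (SE 0.09). With TAM-WT replicate 2 left out the count was 6, while 2755 of all tested genes passed.

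Of 24 genes of sterol handling, other apolipoproteins and ApoE receptors 18 were tested, 0 rose, 2 fell and 16 did not pass (11.1% called, near the 9.81% of all tested genes), with a median log2 difference of -0.12. Lipa, the lysosomal acid lipase that frees cholesterol from its esters, read 191.53, 212.48, 204.87 and 194.97 FPKM in TAM-WT replicates 1 to 4. It read 144.97, 133.65 and 163.98 in TAM-KO replicates 2 to 4. Lipa, fitted without TAM-KO replicate 1, fell by 0.55 on the log2 scale (SE 0.11, edgeR adjusted p = 0.0255), and TAM-WT replicate 4 sat with the other TAM-WT libraries. Soat1, which makes cholesterol esters for storage, ranged from 58.90 to 73.83 in TAM-WT and from 49.45 to 57.21 in TAM-KO, and fell by 0.44 (SE 0.11, edgeR adjusted p = 0.0437). Npc2, which carries cholesterol out of the lysosome, was the most abundant gene of the list by mean FPKM over all libraries, with 187 ± 21.3 FPKM in TAM-WT and 184 ± 8.96 in TAM-KO (SD, n = 4 each), and did not pass. The count was 0 with replicate 3 or 4 of TAM-WT, or replicate 2 or 3 of TAM-KO, left out. Of all tested genes 151, 416, 77 and 77 passed in those fits, in that order. With TAM-WT replicate 4 left out the log2 difference was -0.55 for Lipa (SE 0.12) and -0.38 for Soat1 (SE 0.12). Without TAM-KO replicate 1 the count was 1, Lipa, and without TAM-WT replicate 2 it was 4. Of all tested genes 682 and 2755 passed in those fits, in that order.

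Genes beside Apoe were examined because Apoe and Apoc2 moved together across libraries. RefSeq places 24 genes other than the members within 200 kb of the Apoe start, 18 had a value and 14 were tested. None passed edgeR's test (0 of 14), while 6 had an unadjusted p of at most 0.05, or 42.9% against 30.7% of all tested genes. DESeq2 called 4, or 28.6% against 18.2%, and limma voom 3, or 21.4% against 29.2%. Tomm40, a mitochondrial import channel whose gene lies directly beside Apoe, averaged 54.0 ± 3.83 FPKM in TAM-WT and 54.8 ± 2.67 in TAM-KO (SD, n = 4 each). Clptm1 averaged 78.6 ± 6.40 and 71.0 ± 3.64 (n = 4 each), with 69.60 in TAM-WT replicate 4 inside the TAM-KO range of 68.33 to 76.11. The log2 differences ran from -1.78 in Ceacam19 to 0.74 in Bcl3, both named after their values were seen, with Bcl3 fitted without TAM-KO replicate 1. Ceacam19 was low, at 0.36 to 2.35 FPKM in TAM-WT and 0.15 to 0.80 in TAM-KO, and its groups overlapped. Without TAM-WT replicate 4 the count was 1, Ceacam19, without TAM-KO replicate 4 it was 1, Clptm1, and without TAM-WT replicate 2 it was 3. Of all tested genes 416, 1136 and 2755 passed in those fits, in that order.

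**Figure D3:**
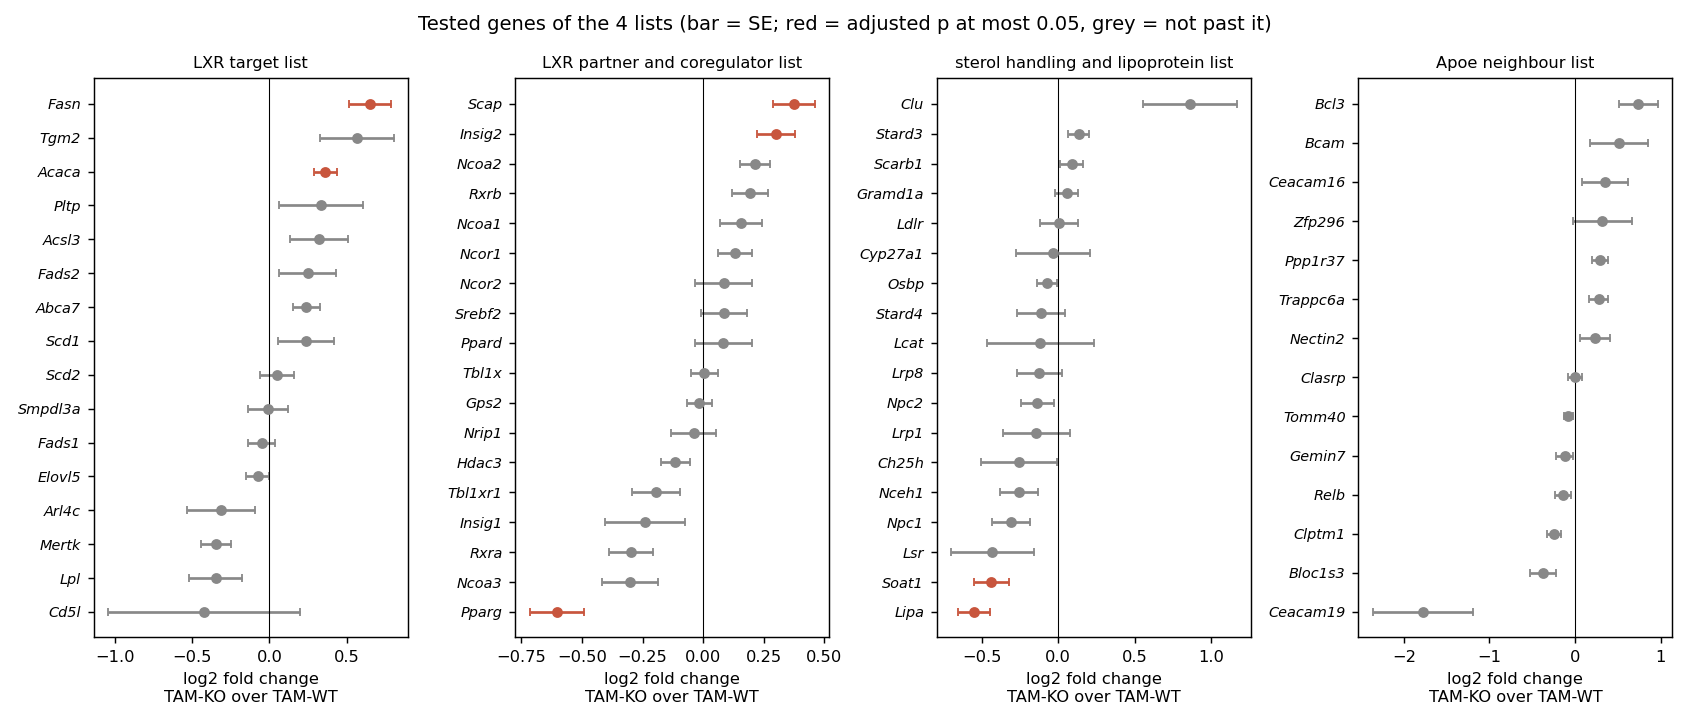
Log2 fold change of TAM-KO over TAM-WT (x axis, dot, with SE) of each tested gene in the lists of 16 further LXR targets, 18 partners and coregulators, 18 sterol handling genes and 14 neighbors of Apoe; red marks an edgeR adjusted p of at most 0.05. Red dots are Fasn, Acaca, Scap and Insig2 to the right of 0, and Pparg, Soat1 and Lipa to the left.

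The genes most like Apoe were ranked over all tested genes with a mean of at least 5 CPM, by Pearson's r on log2(CPM + 1) over the 7 libraries with a full table, with no test. The first 5 were Pex2 (0.99), Rnf141 (0.987), Gm46620 (0.985), Smg9 (0.983) and Ech1 (0.972). The size of the change is not part of r. Pex2, a peroxisomal ubiquitin ligase, ranged only from 28.5 to 30.3 CPM and Rnf141 from 62.4 to 77.3 CPM over the 7 libraries. In FPKM neither gene followed Apoe, as Pex2 read 14.98 in TAM-WT replicate 3, below 4 TAM-KO libraries, and Rnf141 was highest in TAM-KO replicate 3 at 27.36, so their likeness to Apoe holds on CPM and not on FPKM. Gm46620, a predicted gene, read 39.36, 36.92, 47.35 and 14.63 FPKM in TAM-WT replicates 1 to 4. It read 11.72, 13.76, 11.97 and 12.98 in TAM-KO replicates 1 to 4, the same division of libraries as in Apoe. Smg9, of nonsense-mediated decay, read 22.50, 21.68, 21.62 and 16.09 in TAM-WT replicates 1 to 4 and from 15.46 to 18.01 in TAM-KO. Ech1, a fatty acid oxidation enzyme, ranged from 67.87 to 77.64 in TAM-WT replicates 1 to 3, with 62.15 in TAM-WT replicate 4 and from 61.75 to 65.34 in TAM-KO.

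Several of the genes most like Apoe lie near it on chromosome 7, a point noticed after the values were seen. Of the 50 genes with the largest r in either direction, 8 start within 10 Mb of Apoe, or 16%, while 147 of the 10372 genes ranked, or 1.42%, do so. The same window held 5 of the 50 genes most like Abca1, or 10%, although Abca1 is on chromosome 4. C5ar1, the receptor of complement C5a, starts 3.45 Mb from Apoe and read 107.20, 124.87, 138.24 and 39.22 FPKM in TAM-WT replicates 1 to 4. It read 49.49, 31.76, 33.22 and 47.97 in TAM-KO replicates 1 to 4, so TAM-WT replicate 4 lay inside the TAM-KO range. Meis3, 3.52 Mb away, read 5.56, 5.87, 6.91 and 2.73 in TAM-WT replicates 1 to 4 and from 2.5 to 3.3 in TAM-KO. Mark4, 0.271 Mb away, and Qpctl, 0.556 Mb away, followed the same order, with 10.80 and 5.43 FPKM in TAM-WT replicate 4 against at least 13.61 and 8.18 in the other TAM-WT libraries. The pattern was not limited to chromosome 7, and 2 further genes were picked with their values in view. Man2c1 on chromosome 9 (r of -0.992) ran the other way, with 9.52, 10.63, 7.74 and 20.83 in TAM-WT replicates 1 to 4 and from 20.61 to 24.47 in TAM-KO. Dynlt1b on chromosome 17 (r of 0.959) read 118.23, 113.94, 106.98 and 29.24 in TAM-WT replicates 1 to 4 and from 39.23 to 47.97 in TAM-KO. Whether these genes share a cause with Apoe was not tested.

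**Figure D4:**
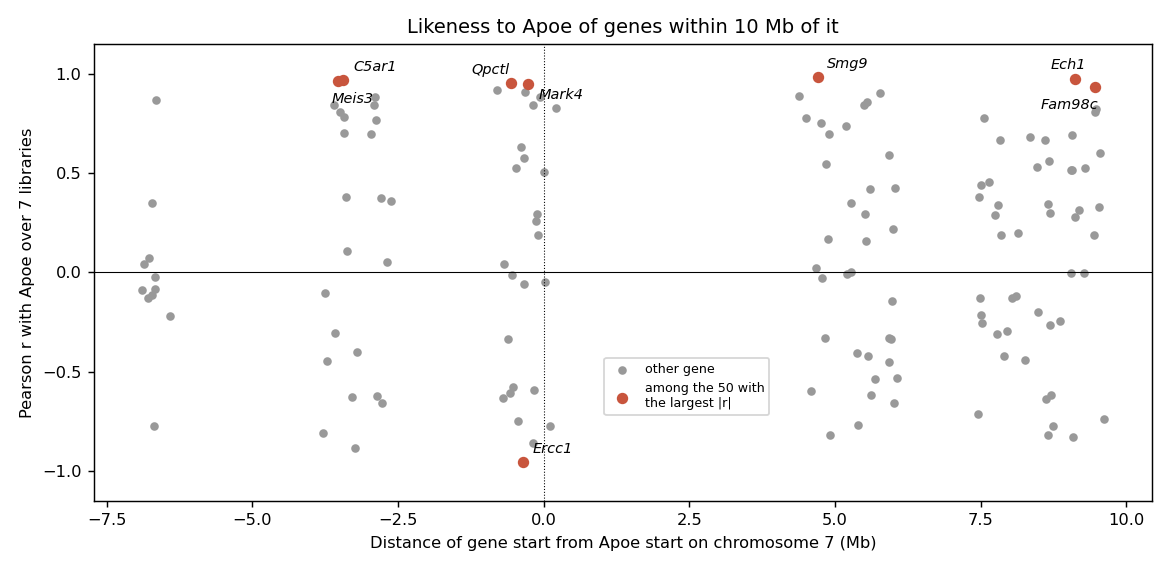
Pearson r with Apoe over 7 libraries (y axis) for the 147 genes ranked whose start lies within 10 Mb of the Apoe start (x axis, distance in Mb); red points are the 8 among the 50 genes with the largest r in either direction. The 8 lie on both sides of Apoe, 7 with positive r and Ercc1 with negative r, among many genes of r near 0.

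The genes most like Abca1 were others. They were Capg (r of 0.995), Wdr1 (0.994), Rab22a (0.992), Atp6ap1 (0.99) and Rnh1 (0.99). Capg, an actin capping protein of MΦ, read 541.77, 512.92, 603.52 and 671.64 FPKM in the TAM-WT libraries and 441.93, 390.68 and 574.14 in the 3 TAM-KO libraries that list it, highest in replicate 4 of both groups as Abca1 was. Wdr1, also of the actin cytoskeleton, varied by only 1.11 times over all libraries. Rnh1, a ribonuclease inhibitor, ranged from 171.77 to 304.66, Atp6ap1, of the proton pump of acidic organelles, from 162.22 to 212.95, and Rab22a, of endosomes, from 24.45 to 33.97, each highest in TAM-WT replicate 4.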

How the data were processed

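RNA-seq was measured in TAMs of 4 TAM-WT and 4 TAM-KO mice, grouped by the genotype in the labels. Per the methods, libraries were sequenced on BGISEQ-500. The submitters' processing notes name HISAT2 2.0.4, Bowtie2 2.2.5, RSEM 1.2.12 and GRCm38.p6. The authors deposited expected counts from RSEM, without normalization, and FPKM, scaled by gene length and mapped reads. TPM, deposited beside them by the authors, was not used, nor were the fold changes and p-values of their own comparison. The expected counts, rounded to whole numbers, entered edgeR 4.0.16 in R 4.3.3 (filterByExpr, TMM, glmQLFit, glmQLFTest, Benjamini-Hochberg). The 12572 genes that all 8 tables list with a value were fitted on 8 libraries and the other 4214 on 7, without TAM-KO replicate 1, and p was adjusted over both together. Apoe, Apoc2, Abca1, Abcg1 and Lpcat3 were fitted on 7 libraries. FPKM means use the whole-series table for TAM-KO replicate 1 where the gene is listed there. That table gives 1188 of the 4214 genes, a choice of genes that differ between the groups. The script was tested on simulated data. The SE of a log2 difference is its size divided by the square root of the F statistic of edgeR's test. It reflects a spread between mice that edgeR moderates over all genes. At 2 to 8 counts per library, as in Apoc1, counting error limits the values.

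The members and lists were chosen with earlier results of these data known. Genes are named by rule: the 10 members, in each list every gene that passed plus the 2 most abundant, the 5 genes most like Apoe and Abca1, and Colec11. Apoc4 and Gm44805 are named because they lie in the Apoe cluster, and other genes with their values in view. The alternatives were DESeq2 size factors and total reads in edgeR, DESeq2 1.42.0, limma 3.58.1 voom with sample quality weights, limma on FPKM in log2 with an offset of 1 or 0.1, no filter on low counts, a minimum of 10 counts per library, a replicate block, 7 libraries for all genes, TAM-KO replicate 1 filled from the whole-series table, each library left out, a stricter adjusted p of 0.01, and a 2-fold minimum change. Relative to TMM, the FPKM fits moved the median log2 difference of all genes by 0.101 and 0.107 toward TAM-KO. Promoter sequences and positions are from RefSeq, GRCm38.p6.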

Additional observations from a re-analysis of the deposited data

Results flagged for a closer look

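Apoe in TAM-WT replicate 4, at 497.2 FPKM, lay far from the other TAM-WT libraries, with a gap to its nearest neighbor of 0.848 of the range of the group, past the 95% limit of Dixon's test for 4 samples. The set was chosen with this value known, so this is a description and adds no support. It was the only such value among the 30 groups of 4 libraries examined, of the members and of the list genes that passed, where chance alone gives about 1.5.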

How the results depend on the processing

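Over all genes, 1218 passed (9.81%), and 2253 did with DESeq2 (18.2%), 3625 with limma voom (29.2%), 1350 with total reads and 1324 and 1284 in the FPKM fits. The number was 682 on 7 libraries, 1079 with TAM-KO replicate 1 filled, 314 with a fold change of at least 2 and 36 at an adjusted p of at most 0.01. Members that passed (1) numbered 2 with total reads, 3 with DESeq2 (33.3%), 3 with limma voom (33.3%) and 0 at the stricter p. In both FPKM fits the 1 was Nr1h3 in place of Apoe. LXR targets (2) numbered 3 with DESeq2 (18.8%, of them Mertk lower in TAM-KO) and 5 with limma voom (31.2%, of them Mertk and Lpl lower). They numbered 0 at the fold change of 2 or the stricter p. Partners (3) numbered 5 with DESeq2 (27.8%), 7 with limma voom (38.9%) and 0 at both. Sterol genes (2) numbered 4 with limma voom (22.2%), 1 on 7 libraries, 1 with TAM-KO replicate 1 filled and 0 at both. Apoe neighbors (0) numbered 1 with total reads, 4 with DESeq2 (28.6%), 3 with limma voom (21.4%) and 1 in each FPKM fit. No difference of these shares from those of all genes was tested. With 1 library left out, the counts ran from 77 to 2755 for all genes, 0 to 3 for members, 0 to 5 for targets, 0 to 6 for partners, 0 to 4 for sterol genes and 0 to 3 for neighbors. The cause was not tested. In 11 alternatives, Apoe's log2 difference ran from -2.55 to -2.08 and passed in 8. Among these, the fit on 7 libraries repeats Apoe's fit and changes only the adjustment of p.

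Same-numbered libraries deviated from their group means with correlations of -0.321 to 0.263, so the numbers were not taken as pairs. With the replicate block 1080 genes passed, 2 of them members, Abca1 and Apoc2 in place of Apoe, and the other list counts stayed within 1.5 times, with Insig2 no longer past the threshold. Insig2 and Soat1 were also lost on 7 libraries.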
